A study of Aspergillus cristatus with 9 samples.

Results

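The 130 genes described here are those that the authors' annotation of *Aspergillus cristatus* (also named *Eurotium cristatum*) placed in the KEGG pathways of glycerolipid, glycerophospholipid or sphingolipid metabolism and in none of glycolysis, fatty acid degradation and the peroxisome. They were 130 of the 10227 genes listed. Glycerolipid metabolism held 33 of them, glycerophospholipid metabolism 85 and sphingolipid metabolism 30, with some genes in more than 1. The choice rested on annotation and used no measured value, though earlier results of these data were known when it was made. It left out 20 alcohol and aldehyde dehydrogenases that share these pathways with the excluded ones.

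The 9 RNA libraries of strain JLU fell into 3 groups of 3. EcRS was the fungus on sterilized roots of *Panax ginseng* for 1 week at 28 °C, EcSQ the fungus on sterilized roots of *Panax notoginseng* for the same time, and EcCK the fungus that had met no root. All had been grown on potato dextrose agar for 10 days. The comparisons ask how the fungal transcriptome on each root differs from that without roots, and how it differs between the roots. The sample labels call all material mycelium with an age of 1 week, whereas the study's methods call the EcCK material spores taken from plates. The growth medium, and by the methods the growth stage, changed together with root contact and cannot be told apart from it. No source states whether replicate libraries stem from different cultures, so p-values measure only the spread between libraries, which may be technical.

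Fungi build membrane and storage lipids from glycerol-3-phosphate, which is acylated to phosphatidate. Phosphatidate is turned either into diacylglycerol and the storage fat triacylglycerol, or into CDP-diacylglycerol, from which phosphatidylinositol, phosphatidylserine and cardiolipin are made. Phosphatidylcholine comes from phosphatidylserine by decarboxylation and methylation, or from free choline and ethanolamine by the Kennedy pathway. Sphingolipids start from serine and a fatty acid, pass through ceramide, and end in fungi as inositol phosphorylceramides and glucosylceramides of the plasma membrane.

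The pathway names were checked against each gene's own annotation. For 66 of the 130 genes the description or gene ontology term named the activity of the KEGG entry, for 48 the KEGG entry alone gave it, and for 16 another function was named. SI65_02638, listed by KEGG as a mitochondrial glycerol-3-phosphate dehydrogenase, is for example annotated as an amino acid transporter. The enzyme names below are those of KEGG, and genes that share an entry may differ in function. How reads shared by close copies were counted, and whether strand was used, are not given in the sources used here.

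Each library held between 45891944 and 61627866 estimated counts in listed genes. The share of mapped units outside the listed genes was 23.1 to 26.9% in EcRS, 12.1 to 14.9% in EcSQ and 12.1 to 14.1% in EcCK. The 3 EcRS libraries correlated with each other at 0.987 to 0.990, the EcSQ libraries at 0.777 to 0.950 and the EcCK libraries at 0.877 to 0.974. These values are Pearson's r of log2(FPKM + 1), a description, across genes averaging 1 FPKM or more over the 9 libraries. EcSQ3 stood apart from its group: its correlation was 0.777 with EcSQ1 and 0.853 with EcSQ2, but 0.914 to 0.926 with EcRS and 0.627 to 0.700 with EcCK. Whether that library was exchanged or mixed with another was not tested. For some genes the EcSQ value is also given without EcSQ3. Where none is given, the EcSQ value includes EcSQ3 and may rest on it. Among the 321 genes whose annotation names conidia, spores or hydrophobins, summed FPKM was 54015 to 60519 in EcRS, 47259 to 76997 in EcSQ and 31529 to 42869 in EcCK. In EcRS against EcCK 42 of the 308 tested rose and 109 fell, against 12.8% and 47.6% of all genes, and with TMM factors 107 rose and 73 fell, against 26.4% and 31.4% of all genes. The part of spore content in the lipid results was not tested.

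EcSQ3 stood apart in the lipid genes too. It had the lowest value of its group in 93 of the 130 genes, and in 66 it was at most 0.5 times the lower of EcSQ1 and EcSQ2. The median log2 ratio of the 130 genes to the EcCK mean, on the log2(FPKM + 1) scale, was -0.84, -0.84 and -0.82 in EcRS replicates 1 to 3, 0.22, -0.19 and -1.09 in EcSQ replicates 1 to 3, and -0.20, -0.11 and 0.21 in EcCK replicates 1 to 3. The EcRS libraries thus lay close together and EcSQ spread over the range between EcRS and EcCK and past it. The lipid genes took 1.21 to 1.44% of listed counts in EcRS, 1.13 to 1.297% in EcSQ and 1.61 to 1.65% in EcCK.

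**Figure D1:**
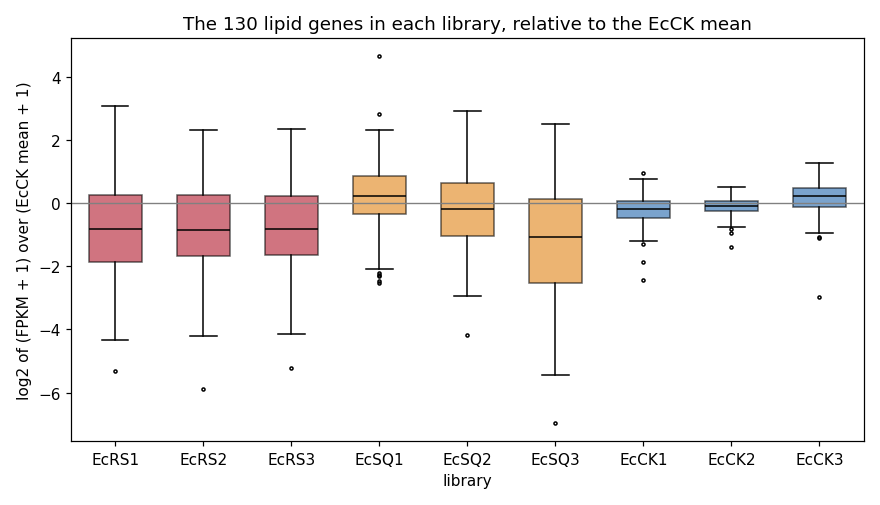
Each box shows the 130 lipid genes of 1 library as the log2 ratio of FPKM + 1 to the EcCK mean of FPKM + 1, with the median as a line, quartiles as box ends, whiskers to 1.5 times the box length and points beyond. The 3 EcRS medians sit between -0.84 and -0.82, whereas EcSQ1, EcSQ2 and EcSQ3 have medians of 0.22, -0.19 and -1.09.

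On the ginseng root the lipid genes moved downwards more often than upwards, and so did the genome. A gene was called where edgeR's quasi-likelihood test gave a Benjamini-Hochberg adjusted p, over all genes tested, no higher than 0.05 and the log2 fold change was 1 or more in either direction. The test took the 122 lipid genes that averaged 1 FPKM (fragments per kilobase of gene, scaled to library size) or more over the 6 libraries, and of these 10 rose in EcRS against EcCK and 57 fell. The other 8 of the 130 averaged less and were not tested. Over all 8925 genes tested 12.8% rose and 47.6% fell, so the lipid shares of 8.20% and 46.7% lay near the background. The median log2 fold change was -0.93 in the lipid genes and -0.96 in all genes. All 3 EcRS libraries lay above all 3 EcCK libraries in 21 of the 122 genes (18.3% of all genes) and below them in 69 (54.3% of all genes). The balance depended on scaling. With TMM factors, which set most genes level between libraries, the all-gene median was -0.11 and the calls were 33 up and 33 down, against 26.4% up and 31.4% down over all genes. All 10 rises stayed rises with TMM, 33 of the 57 falls stayed falls, and 23 genes were called up only with TMM. No call turned its direction. DESeq2, which scales in a similar way, called 34 up and 34 down (27.2% and 31.5% of all genes), and edgeR with all 9 libraries in 1 fit called 10 up and 36 down (9.64% and 34.7% of all genes).

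On the notoginseng root few lipid genes could be told from EcCK. Of 125 lipid genes tested in EcSQ against EcCK none rose and 1 fell (1.72% and 1.87% of all 9160 genes), with 30 at an unadjusted p under 0.05 in edgeR. With TMM factors edgeR called 8 up and 7 down (4.71% and 4.9% of all genes), with all 9 libraries in 1 fit 9 up and 10 down (7.7% and 6.46%), DESeq2 18 up and 18 down (13.9% and 11.3%), and limma on log2(FPKM + 1) 3 up and 5 down (2.81% and 3.7%). Without EcSQ3, edgeR called 13 up (10.4%, against 9.96% of all genes) and 11 down (8.8%, against 6.72% of all genes). Both comparisons use the same EcCK libraries, so their values are given side by side and are not independent. EcSQ lay above EcCK without overlap in 20 of the 125 lipid genes (14.3% of all genes) and below it in 24 (17.7% of all genes). All 6 root libraries lay above all 3 EcCK libraries in 14 of 125 lipid genes (10.9% of all genes) and below them in 23 (16% of all genes).

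The roles of the enzymes differed in their medians. In EcRS against EcCK the median log2 fold change was lowest in the 7 tested glycosidases (-2.45) and the 18 phospholipase and lysophospholipid genes (-1.70). It was highest in the 9 genes of ceramide and sphingoid base synthesis (-0.18) and the 20 genes of glycerol and dihydroxyacetone handling (-0.36). The other medians were -1.19 in 8 genes of sphingolipid breakdown, -1.08 in 26 genes of triacylglycerol and phosphatidate synthesis, -0.84 in 5 neutral lipid lipases, -0.61 in 3 arylsulfatases and -0.49 in 26 headgroup genes. These medians are descriptions of small groups, set against the all-gene median of -0.96. In EcSQ against EcCK the medians ran from -0.86 in the lipases to 1.11 in the arylsulfatases, against -0.01 in all genes.

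**Figure D2:**
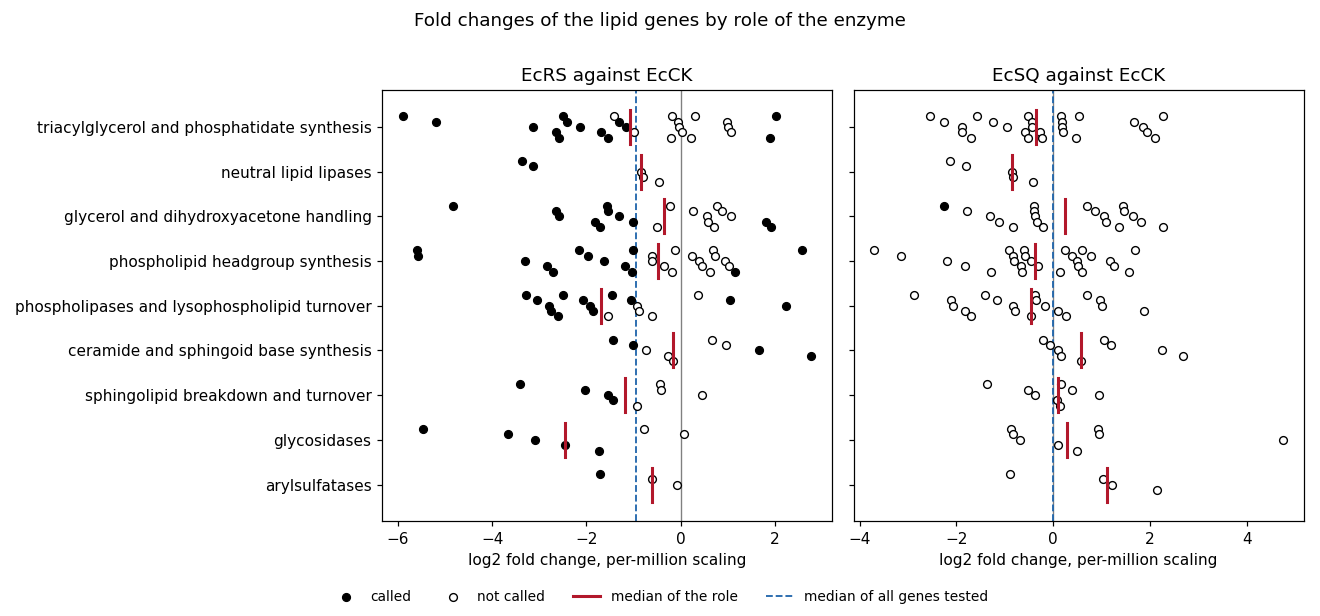
Each point is 1 lipid gene, placed by its log2 fold change in EcRS against EcCK (left) and EcSQ against EcCK (right) and by the role of its enzyme. Filled points passed the test, red bars are medians of a role and the dashed line is the median of all genes tested, which is -0.96 on the left and -0.01 on the right.

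Of the 20 tested genes of glycerol and dihydroxyacetone handling 2 rose and 9 fell in EcRS (12.8% and 47.6% of all genes), and in EcSQ 1 fell, glycerol kinase. This gene, SI65_00579, whose enzyme makes glycerol-3-phosphate from free glycerol (contig 1, 1545955-1547814), had 56.5, 80.4 and 84.2 FPKM in EcRS, 92.2, 105 and 91.3 FPKM in EcSQ and 503, 401 and 475 FPKM in EcCK. All 6 root libraries lay below all EcCK libraries, and EcSQ3 was like its group here. The gene fell by 2.64 ± 0.29 on the log2 scale in EcRS (SE, adjusted p = 7.81e-05) and by 2.26 ± 0.43 in EcSQ (adjusted p = 0.0298), where it was the single lipid gene called. The EcSQ call was lost with TMM factors (log2 fold change -1.96, adjusted p = 0.0759) and without any 1 of EcSQ1, EcSQ2, EcCK1, EcCK2 and EcCK3 (-2.34 to -2.19, adjusted p of 0.0549 to 0.172), and held without EcSQ3 (-2.22, adjusted p = 0.0103).

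The next enzyme of glycerol use is the mitochondrial glycerol-3-phosphate dehydrogenase. SI65_02539, the only 1 of 12 genes under that KEGG entry whose own annotation names the activity, had 62.7, 93.3 and 66.2 FPKM in EcRS, 88.2, 77.7 and 64.7 FPKM in EcSQ and 204, 204 and 379 FPKM in EcCK. The groups on roots did not overlap with EcCK. It fell by 1.83 ± 0.34 in EcRS (adjusted p = 0.00146), a call lost with TMM factors (-0.94, adjusted p = 0.0134), and its value in EcSQ was -1.77 ± 0.47 (adjusted p = 0.0705; without EcSQ3 -1.66, adjusted p = 0.0374). The cytosolic NAD-dependent enzyme that makes glycerol-3-phosphate, SI65_09270, had a mean of 87.1 ± 9.53 FPKM in EcRS, 135 ± 40.1 FPKM in EcSQ and 177 ± 91.8 FPKM in EcCK (SD, n = 3 each). Its fall in EcRS (-1.02 ± 0.36, adjusted p = 0.0319) rested on EcCK1 at 282 FPKM: without that library it was -0.51. It was also lost with TMM factors (-0.29), with EcRS and EcCK paired by replicate number (-0.90, adjusted p = 0.0501), and without any 1 EcRS library (-1.09 to -0.94).

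The other 11 genes under the mitochondrial entry did not follow SI65_02539 as a group. SI65_02638, the annotated amino acid transporter, had 46.6, 50.3 and 72.2 FPKM in EcRS, 62.0, 87.7 and 65.7 FPKM in EcSQ and 8.43, 11.8 and 24.4 FPKM in EcCK. It rose in EcRS (1.92 ± 0.41, adjusted p = 0.0029) and was 2.27 ± 0.58 in EcSQ (adjusted p = 0.0637; without EcSQ3 2.33, adjusted p = 0.0123; with TMM factors 2.67, adjusted p = 0.0325). SI65_04745, known by the KEGG entry alone, fell in EcRS (-1.70 ± 0.30, adjusted p = 0.000909; with TMM factors -0.93, not called). In mean FPKM the 12 genes were led by SI65_02539 in EcRS (74.1) and in EcCK (263) and by SI65_04745 in EcSQ (89.2), with SI65_09923 last in every group at under 1 FPKM and not tested. In EcRS the order after the first 3, SI65_02539, SI65_04745 and SI65_02638, was SI65_06928, SI65_02796, SI65_06940, SI65_08849, SI65_03304, SI65_09400, SI65_02840 and SI65_04357. Of these SI65_09400 rose in EcRS (1.81) and SI65_03304 fell (-1.31, lost with TMM factors). The other 6 were not called in the main fit, and all of them were called up with TMM factors. SI65_08849 was also called up without EcCK1 (1.15), and SI65_02840 without EcCK3 (1.54).

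Glycerate kinase, SI65_02403, known by its KEGG entry alone, had the largest fall among the glycerol genes. It had 1.12, 1.32 and 0.906 FPKM in EcRS, 53.6, 17.6 and 1.24 FPKM in EcSQ and 29.8, 26.7 and 38.8 FPKM in EcCK. EcRS was low in all libraries, and EcSQ3 was at the EcRS level while EcSQ1 was above every EcCK library. The log2 fold change was -4.82 ± 0.34 in EcRS (adjusted p = 1.61e-05) and -0.40 ± 1.02 in EcSQ (adjusted p = 0.882). Dihydroxyacetone kinase, SI65_06856, had 59.9, 41.2 and 58.2 FPKM in EcRS, 279.9, 313 and 28.9 FPKM in EcSQ and 67.2, 62.5 and 94.9 FPKM in EcCK, with EcSQ3 again apart from EcSQ1 and EcSQ2. Its EcSQ value was 1.47 ± 0.76 (adjusted p = 0.314) with all libraries and 1.98 ± 0.39 (adjusted p = 0.0101) without EcSQ3.

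The entry to phosphatidate was lower on ginseng. Glycerol-3-phosphate acyltransferase, which adds the first fatty acid, has 3 genes. All 3 fell in EcRS (47.6% of all genes), and 2 of the 3 also with TMM factors (31.4% of all genes). The most abundant, SI65_00559, had 50.2, 57.2 and 79.7 FPKM in EcRS, 83.8, 131 and 134 FPKM in EcSQ and 299.8, 364 and 165 FPKM in EcCK. The groups formed 3 ranges that did not overlap, with EcRS lowest and EcCK highest. The falls were 2.15 ± 0.36 for SI65_00559 (adjusted p = 0.00081), 2.50 ± 0.36 for SI65_07367 (adjusted p = 0.000299) and 1.69 ± 0.28 for SI65_00573 (adjusted p = 0.00073), all on the log2 scale, and SI65_00573 lost its call with TMM factors (-0.86). In EcSQ the values were -1.25, -1.70 and -0.58, and none passed. Without EcSQ3 they ran from -1.36 to -0.07, and again none passed.

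The last step to triacylglycerol held the largest fall of all lipid genes. Phospholipid:diacylglycerol acyltransferase, SI65_05726, which moves a fatty acid from a phospholipid to diacylglycerol (contig 5, 1500455-1502413), had 0.322, 0.444 and 0.519 FPKM in EcRS, 14.1, 6.23 and 0.550 FPKM in EcSQ and 27.0, 29.0 and 21.5 FPKM in EcCK. EcRS was near the lower end of detection in all 3 libraries, and EcSQ3 was at the EcRS level. The log2 fold change was -5.90 ± 0.33 in EcRS (adjusted p = 1.09e-05; with TMM factors -5.11) and -1.89 ± 0.95 in EcSQ (adjusted p = 0.302; without EcSQ3 -1.35, adjusted p = 0.0749).

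The acyl-CoA dependent diacylglycerol acyltransferases went separate ways. SI65_07531, of the DGAT2 type that makes most storage fat in yeasts, had 17.6, 18.6 and 19.3 FPKM in EcRS, 56.2, 36.6 and 21.7 FPKM in EcSQ and 39.3, 43.8 and 54.6 FPKM in EcCK. It fell in EcRS (-1.31 ± 0.24, adjusted p = 0.00115; with TMM factors -0.46, not called). SI65_03630, of the DGAT1 type by its KEGG entry, had 21.5, 16.7 and 25.1 FPKM in EcRS, 45.8, 62.1 and 28.1 FPKM in EcSQ and 5.97, 8.56 and 17.3 FPKM in EcCK. All EcSQ libraries lay above all EcCK libraries, whereas EcRS2 lay below EcCK3. Its log2 fold change in EcRS was 0.99 ± 0.40 (adjusted p = 0.0515) and passed with pairing by replicate number (1.11, adjusted p = 0.0139), with TMM factors (1.90, adjusted p = 0.000789) and without EcCK3 (1.54, adjusted p = 0.000455). In EcSQ it was 2.09 ± 0.63 (adjusted p = 0.0962) and passed without EcSQ3 (2.35, adjusted p = 0.0121) and with TMM factors (2.34, adjusted p = 0.0324).

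Phosphatidate phosphatase, which makes diacylglycerol, has 1 gene of the lipin type and 7 under the entry of the membrane enzyme DPP1, named for yeast. The lipin type gene, SI65_05375, had 26.6, 33.3 and 34.2 FPKM in EcRS, 50.0, 46.7 and 35.3 FPKM in EcSQ and 60.8, 56.0 and 71.5 FPKM in EcCK. The 3 groups did not overlap, and the EcRS value of -0.999 ± 0.24 (adjusted p = 0.00509) sat on the fold threshold without reaching it. It passed with pairing (-1.001, adjusted p = 0.00558) and without any 1 of EcRS2, EcRS3, EcCK1 and EcCK2 (-1.07 to -1.02), and was -0.17 with TMM factors. SI65_10076, under the DPP1 entry but with another function in its own annotation, was the most abundant gene of triacylglycerol and phosphatidate synthesis in EcRS and EcCK but not in EcSQ, and varied widely, with 1157, 1561 and 537 FPKM in EcRS, 169.6, 153 and 158 FPKM in EcSQ and 1803, 893 and 118 FPKM in EcCK. By mean FPKM in EcRS the DPP1 entries ran in the order SI65_10076, SI65_00627, SI65_00628, SI65_06955, SI65_00629, SI65_02645 and SI65_07620. The 3 least abundant fell in EcRS (SI65_00629 by 1.54, SI65_02645 by 2.42 and SI65_07620 by 2.58 on the log2 scale; the first lost with TMM factors), and SI65_00628 was called up with pairing (1.01, adjusted p = 0.00635) and at 0.97 without it. SI65_09264, a 2-acylglycerol acyltransferase by its KEGG entry, rose in EcRS at a low level (2.44 ± 0.539 FPKM in EcRS, 0.602 ± 0.227 FPKM in EcCK, SD, n = 3 each; log2 fold change 2.01 ± 0.40, adjusted p = 0.00187).

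The acyldihydroxyacetone phosphate reductase entry, whose enzyme makes lysophosphatidate by another route, holds 7 genes. Of these 1 rose and 3 fell in EcRS, near the 12.8% and 47.6% of all genes. The most abundant in each group, SI65_02850, averaged 152 FPKM in EcRS, 456 FPKM in EcSQ and 404 FPKM in EcCK, where EcCK3 alone reached 983 FPKM. It was not called in EcRS (-1.41), but was called down there without EcCK1 (-1.90). SI65_02492 and SI65_08824 had 0.03 and -0.03, SI65_03165 rose (1.90), and SI65_10289, SI65_10240 and SI65_07245 fell by 2.65, decreased by 3.13 and dropped by 5.19 on the log2 scale.

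Of 5 tested lipases that release fatty acids from stored fat 2 fell in EcRS and none rose, while 47.6% of all genes fell, and the calls were 2 down with TMM factors as well. SI65_00888, of the TGL4 type known from yeast lipid droplets, had 6.89, 5.33 and 8.16 FPKM in EcRS, 22.4, 31.7 and 6.38 FPKM in EcSQ and 62.7, 70.4 and 77.4 FPKM in EcCK. All 6 root libraries lay below all EcCK libraries. It fell by 3.37 ± 0.27 on the log2 scale in EcRS (adjusted p = 2.19e-05), and in EcSQ it was -1.80 ± 0.61 (adjusted p = 0.131; without EcSQ3 -1.38, adjusted p = 0.0358; with TMM factors -1.82, adjusted p = 0.0464). SI65_02569, of the TGL3 type, fell in EcRS (-3.13 ± 0.38, adjusted p = 0.000136) with 19.0, 18.8 and 25.8 FPKM in EcRS, 185, 122 and 6.64 FPKM in EcSQ and 117, 155 and 286 FPKM in EcCK, where EcSQ3 alone of its group was low. The second TGL4 type gene, SI65_01616, was lowest in EcSQ, with 68.0, 88.8 and 63.6 FPKM in EcRS, 45.0, 32.2 and 10.4 FPKM in EcSQ and 132, 153 and 99.2 FPKM in EcCK. Its values were -0.80 ± 0.27 in EcRS (adjusted p = 0.0274, below the fold threshold) and -2.13 ± 0.59 in EcSQ (adjusted p = 0.0799; without EcSQ3 -1.73, adjusted p = 0.0207; with TMM factors -2.22, adjusted p = 0.0359).

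**Figure D3:**
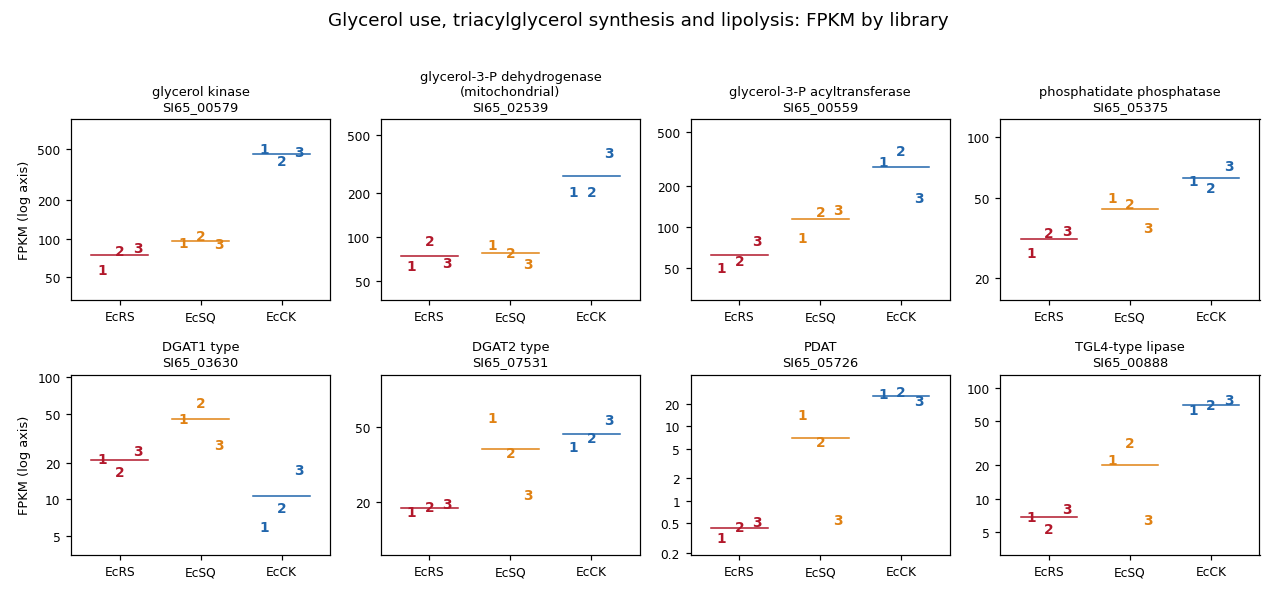
FPKM of 8 genes of glycerol use, fat synthesis and fat breakdown on log axes, with numerals for the replicates of EcRS, EcSQ and EcCK and bars at the group means. Glycerol kinase stays between 56.5 and 105 FPKM in the 6 root libraries and at 401 or more in EcCK, whereas PDAT (phospholipid:diacylglycerol acyltransferase) in EcSQ3, at 0.550 FPKM, is near the EcRS libraries.

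Of the 8 genes entered under Kennedy pathway enzymes 4 fell in EcRS and none rose, with 47.6% of all genes down. With TMM factors 2 of the 4 calls, in SI65_07873 and SI65_08281, were lost, and 2 other genes, SI65_08280 and SI65_06342, were called up. Ethanolamine kinase SI65_07874, known by its KEGG entry alone (contig 10, 620604-621709), had 10.7, 6.96 and 11.5 FPKM in EcRS, 80.8, 25.2 and 2.82 FPKM in EcSQ and 499, 664 and 250.1 FPKM in EcCK. Every root library was below every EcCK library, with EcSQ3 lowest of all. The log2 fold change was -5.60 ± 0.46 in EcRS (adjusted p = 2.29e-05) and -3.70 ± 1.03 in EcSQ (adjusted p = 0.0804; without EcSQ3 -3.15, adjusted p = 0.0115; with TMM factors -4.07, adjusted p = 0.0363). Its neighbour under the same entry, SI65_07873, had 32.5, 36.4 and 40.4 FPKM in EcRS, 79.3, 61.8 and 40.1 FPKM in EcSQ and 51.3, 60.8 and 112 FPKM in EcCK. SI65_07873 fell in EcRS by 1.03 ± 0.33 (adjusted p = 0.0196), which did not hold with TMM factors (-0.15), with pairing (-0.95) or without EcRS1 (-0.96), EcRS2 (adjusted p = 0.064) or EcCK3 (-0.62). SI65_07874 thus made up most of the summed mean FPKM of the 2 genes in EcCK, whereas SI65_07873 did in EcRS and EcSQ.

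Choline-phosphate cytidylyl transferase, which activates choline for phosphatidylcholine, is SI65_02587 by its KEGG entry. It had 15.6, 14.9 and 20.4 FPKM in EcRS, 101, 40.5 and 5.73 FPKM in EcSQ and 94.3, 106 and 161 FPKM in EcCK. It fell in EcRS (-2.83 ± 0.30, adjusted p = 6.66e-05; with TMM factors -1.97, adjusted p = 9.74e-05), and in EcSQ it was -1.29 ± 0.84 (adjusted p = 0.432). The 2 choline kinase entries, which lie 1907 bases apart on contig 12, moved apart: SI65_08281 fell in EcRS (-1.19 ± 0.29, adjusted p = 0.00614), a call lost with TMM factors (-0.32) and without EcCK3 (-0.93). SI65_08280, annotated with another function, had 0.93 ± 0.23 (adjusted p = 0.00684), which passed the fold threshold with TMM factors (1.73). The ethanolaminephosphotransferases of the last step, SI65_06342 and SI65_04764, had 0.72 and -0.62 and were not called, and SI65_06342 passed with TMM factors (1.58).

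The methylation route to phosphatidylcholine did not change by the test. Phosphatidylethanolamine methyltransferase SI65_04564 had 15.3, 24.8 and 26.4 FPKM in EcRS, 33.8, 36.5 and 32.7 FPKM in EcSQ and 19.2, 20.2 and 32.8 FPKM in EcCK. Phospholipid methyltransferase SI65_02564, which completes the methylation, had 140.1, 133 and 139 FPKM in EcRS, 230.2, 191 and 164 FPKM in EcSQ and 127, 136 and 267 FPKM in EcCK. EcRS and EcCK overlapped in both genes. The log2 fold changes in EcRS were -0.12 ± 0.32 (adjusted p = 0.753) and -0.36 ± 0.32 (adjusted p = 0.331), and 0.74 and 0.53 with TMM factors, so that their sign depended on the scaling.

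The entry to the CDP-diacylglycerol branch was not called changed. Phosphatidate cytidylyl transferase SI65_01264, which makes CDP-diacylglycerol, had 180.2, 253 and 185 FPKM in EcRS, 123, 225 and 439 FPKM in EcSQ and 142, 189.7 and 191 FPKM in EcCK. Phosphatidylinositol synthase SI65_08299 had 92.6, 116 and 129 FPKM in EcRS, 88.1, 156 and 406 FPKM in EcSQ and 65.9, 73.5 and 81.3 FPKM in EcCK. All 6 root libraries lay above all EcCK libraries in SI65_08299, and EcSQ3 was the highest library in both genes. In EcRS the log2 fold changes were 0.24 ± 0.27 (adjusted p = 0.445) for SI65_01264 and 0.62 ± 0.24 (adjusted p = 0.0459, below the fold threshold) for SI65_08299, and both passed with TMM factors (1.08 and 1.44).

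In the branch to cardiolipin, the phospholipid of the inner mitochondrial membrane, 3 of 4 genes fell in EcRS, against 47.6% of all genes. These 3, SI65_03151, SI65_00759 and SI65_04211, were added with their values in view. Phosphatidylglycerophosphate synthase SI65_03151 had 0.661, 0.359 and 0.913 FPKM in EcRS, 9.99, 3.72 and 0.332 FPKM in EcSQ and 3.35, 5.37 and 10.7 FPKM in EcCK, and fell by 3.30 ± 0.55 on the log2 scale in EcRS (adjusted p = 0.000714). Phosphatidylglycerophosphatase SI65_00759 had 0.208, 0.0526 and 0.104 FPKM in EcRS, 10.5, 1.31 and 0.233 FPKM in EcSQ and 3.49, 4.59 and 10.6 FPKM in EcCK. Its fall of 5.58 ± 0.67 (adjusted p = 0.000126) rests on 19 estimated counts in the EcRS libraries together, against 952 in EcCK, so its size is uncertain. Tafazzin SI65_04211, which remodels the acyl chains of cardiolipin, fell by 1.62 ± 0.28 (adjusted p = 0.000871; with TMM factors -0.80, not called). Cardiolipin synthase SI65_03434 itself had 7.59, 7.14 and 10.5 FPKM in EcRS, 19.3, 15.8 and 7.80 FPKM in EcSQ and 6.55, 7.15 and 14.8 FPKM in EcCK, with a log2 fold change of -0.18 ± 0.40 in EcRS (adjusted p = 0.702; with TMM factors 0.71). None of the 4 passed in EcSQ, where EcSQ3 was the lowest library of its group in each.

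Phosphatidylserine synthase is annotated as 2 gene models on contig 1, SI65_00422 (1123292-1123650) and SI65_00423 (1123696-1124311), on the same strand with 45 bases between them. SI65_00422 had 203, 180.3 and 149.9 FPKM in EcRS, 52.5, 44.2 and 91.5 FPKM in EcSQ and 143, 108 and 81.2 FPKM in EcCK. SI65_00423 had 271, 271 and 183 FPKM in EcRS, 109, 80.0 and 178 FPKM in EcSQ and 223, 187 and 146 FPKM in EcCK. The ratio of SI65_00423 to SI65_00422 stayed between 1.22 and 2.07 over the 9 libraries. EcRS was above EcCK in every library of SI65_00422 and overlapped with it in SI65_00423. The log2 fold changes in EcRS were 0.68 ± 0.28 (adjusted p = 0.0587) and 0.38 ± 0.27 (adjusted p = 0.236), and 1.45 and 1.17 with TMM factors, where both passed.

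Phosphatidylserine decarboxylase, which makes phosphatidylethanolamine, has 8 genes, and they moved in opposite directions. SI65_00975 had 23.2, 23.5 and 24.3 FPKM in EcRS, 16.9, 17.1 and 4.47 FPKM in EcSQ and 2.70, 3.49 and 5.71 FPKM in EcCK. It rose in EcRS by 2.57 ± 0.34 on the log2 scale (adjusted p = 0.000198), and in EcSQ it was 1.69 ± 0.76 (adjusted p = 0.248; without EcSQ3 2.09, adjusted p = 0.0225). SI65_08303, known by its KEGG entry alone, also rose in EcRS (1.15 ± 0.25, adjusted p = 0.00319), with 90.2, 88.4 and 108 FPKM in EcRS, 66.1, 108 and 117 FPKM in EcSQ and 35.5, 40.7 and 52.6 FPKM in EcCK.

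In contrast SI65_08910 fell in EcRS (-2.15 ± 0.34, adjusted p = 0.000565), with 7.84, 7.52 and 10.4 FPKM in EcRS, 17.4, 11.1 and 3.66 FPKM in EcSQ and 25.8, 32.4 and 56.5 FPKM in EcCK. SI65_02171 fell in EcRS at low levels (0.683 ± 0.400 FPKM in EcRS, 4.45 ± 0.677 FPKM in EcCK, SD, n = 3 each; -2.70 ± 0.48, adjusted p = 0.000983). SI65_09836 fell by 1.01 ± 0.23 (adjusted p = 0.00416), a call lost with TMM factors (-0.21), without EcRS1 (-0.93) and without EcCK2 (-0.93). SI65_10155, the most abundant of the 8 in each group, had 190.2, 219 and 230.1 FPKM in EcRS, 187, 181 and 175 FPKM in EcSQ and 27.9, 58.9 and 229 FPKM in EcCK. Its level was alike in all root libraries and in EcCK3, and the value of 1.02 ± 0.65 in EcRS (adjusted p = 0.188) passed with pairing (1.58, adjusted p = 0.0289), with TMM factors (2.02, adjusted p = 0.0158) and without EcCK3 (2.30, adjusted p = 8.98e-05).

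SI65_02740 was the decarboxylase that set EcSQ apart. It had 14.3, 20.5 and 11.0 FPKM in EcRS, 2.27, 0.572 and 0.911 FPKM in EcSQ and 13.2, 13.5 and 6.63 FPKM in EcCK, so that all EcSQ libraries, EcSQ3 included, lay below the other 6. Its value was 0.46 ± 0.36 in EcRS (adjusted p = 0.283) and -3.15 ± 0.81 in EcSQ (adjusted p = 0.0652; without EcSQ3 -2.96, adjusted p = 0.0224; with TMM factors -3.09, adjusted p = 0.0363). By mean FPKM in EcRS the order was SI65_10155, SI65_08303, SI65_09836, SI65_00975, SI65_02740, SI65_08910, SI65_02171 and SI65_03263, and no 2 neighbours in it overlapped between libraries. SI65_03263, at most 0.696 FPKM in any library, was not tested.

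**Figure D4:**
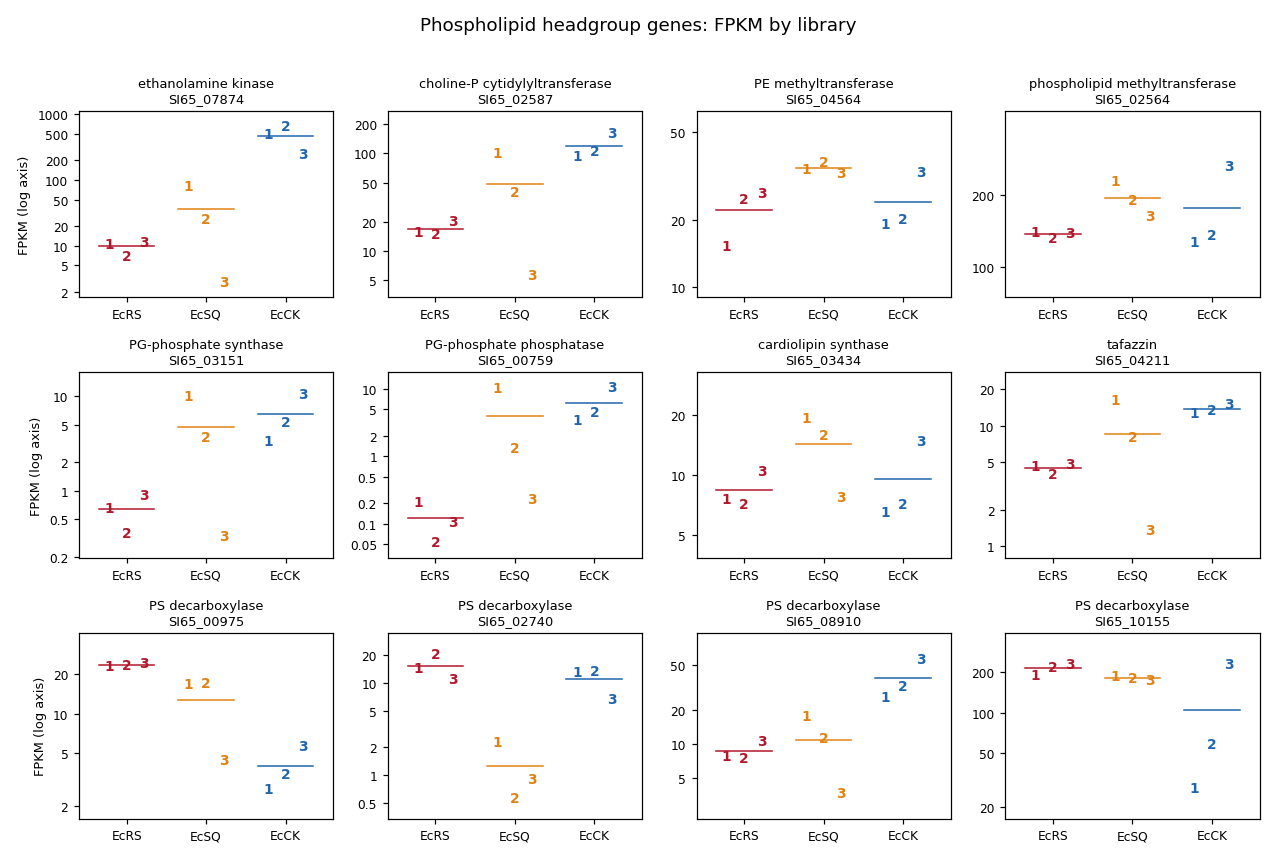
FPKM of 12 phospholipid genes on log axes, with numerals for the replicates of EcRS, EcSQ and EcCK and bars at the group means (P, phosphate; PE, phosphatidylethanolamine; PG, phosphatidylglycerol; PS, phosphatidylserine). Among the PS decarboxylases SI65_00975 is highest in EcRS (23.2 to 24.3 FPKM), SI65_02740 lowest in EcSQ (0.572 to 2.27 FPKM) and SI65_08910 highest in EcCK (25.8 to 56.5 FPKM).

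Betaine lipids, phosphorus-free membrane lipids known from algae and some fungi, are made by the enzyme entry that SI65_08052 carries. It had 3.29, 4.09 and 3.48 FPKM in EcRS, 7.84, 6.25 and 8.42 FPKM in EcSQ and 14.6, 15.0 and 12.7 FPKM in EcCK. The 3 groups did not overlap, and the gene fell by 1.96 ± 0.25 on the log2 scale in EcRS (adjusted p = 0.000159; with TMM factors -1.16, adjusted p = 0.00419), while EcSQ had -0.91 ± 0.54 (adjusted p = 0.39).

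Phospholipases cut fatty acids or headgroups from phospholipids. In the role of phospholipases and lysophospholipid turnover 11 of 18 tested genes fell in EcRS and 2 rose (47.6% and 12.8% of all genes). Not all 18 are phospholipases. The role also holds glycerophosphocholine phosphodiesterases and an acetylcholinesterase type esterase, SI65_09948, which fell (-2.61, with TMM factors -1.90). The counts were 9 down and 2 up with pairing, and 7 down and 3 up with TMM factors (31.4% and 26.4% of all genes). The 2 falls lost with pairing were in SI65_06720, a glycerophosphocholine phosphodiesterase (-1.05 ± 0.39, adjusted p = 0.0368; with pairing -0.95), and in SI65_06747, under the lysophospholipase II entry (-1.45 ± 0.47, adjusted p = 0.022; with pairing -1.35, adjusted p = 0.0546). Both were also lost with TMM factors (-0.16 and -0.54), and without EcRS2 (-1.04 and -1.41), EcRS3 (-1.24 and -1.30) or EcCK3 (-0.51 and -0.98), and SI65_06720 without EcRS1 (-0.91). The 2 that rose were the most abundant, SI65_00919, and SI65_04111. Lysophospholipase SI65_00919 had 754, 771 and 708 FPKM in EcRS, 418, 672 and 1058 FPKM in EcSQ and 315, 415 and 346 FPKM in EcCK. SI65_04111, under the entry of lysophospholipase II but annotated with another function, had 165, 166 and 169 FPKM in EcRS, 120.3, 113 and 157 FPKM in EcSQ and 27.4, 27.3 and 51.8 FPKM in EcCK. In both genes all 6 root libraries lay above all EcCK libraries. SI65_04111 rose by 2.23 ± 0.31 in EcRS (adjusted p = 0.00028) and had 1.87 ± 0.52 in EcSQ (adjusted p = 0.0799; without EcSQ3 1.71, adjusted p = 0.0217; with TMM factors 2.36, adjusted p = 0.0462). SI65_00919 rose by 1.05 ± 0.28 in EcRS (adjusted p = 0.0083), which fell short of the fold threshold without EcCK1 (0.97).

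The second abundant lysophospholipase, SI65_09737, went the other way, with 116, 122 and 116 FPKM in EcRS, 185, 103 and 8.79 FPKM in EcSQ and 567, 488 and 228 FPKM in EcCK. It fell in EcRS (-1.86 ± 0.37, adjusted p = 0.00186; with TMM factors -1.11, adjusted p = 0.0516). SI65_09737 was the leading lysophospholipase in EcCK, and SI65_00919 in EcRS and EcSQ. The largest fall of this role was in phospholipase D SI65_06214 (-3.28 ± 0.42, adjusted p = 0.000175), with 0.956, 0.834 and 1.58 FPKM in EcRS, 9.43, 4.20 and 1.05 FPKM in EcSQ and 7.23, 8.58 and 17.0 FPKM in EcCK. It was the least abundant of 4 phospholipase D genes, after SI65_04490, SI65_05113 and SI65_06213 in every group, and SI65_06213 fell in EcRS as well (-2.07). SI65_04490 was lowest in EcSQ, with a mean of 125 FPKM in EcRS, 56.8 FPKM in EcSQ and 239 FPKM in EcCK, and had -2.07 ± 0.64 there (adjusted p = 0.104; without EcSQ3 -1.64, adjusted p = 0.0465; with TMM factors -2.19, adjusted p = 0.049).

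In 3 further phospholipases, added with their values in view, all 6 root libraries lay below EcCK, as in 16% of all genes. Cytosolic phospholipase A2 SI65_08115 had 6.65, 10.4 and 7.52 FPKM in EcRS, 12.5, 9.79 and 0.707 FPKM in EcSQ and 67.1, 77.4 and 25.9 FPKM in EcCK. Phospholipase C SI65_09907, by its KEGG entry, had 47.3, 53.8 and 61.7 FPKM in EcRS, 42.1, 68.8 and 64.9 FPKM in EcSQ and 167, 265 and 188 FPKM in EcCK. SI65_04621, the lysophospholipase nte1, had 8.51, 11.8 and 9.97 FPKM in EcRS, 26.7, 27.2 and 9.42 FPKM in EcSQ and 63.6, 85.6 and 55.1 FPKM in EcCK. In SI65_09907 the 6 root libraries lay together, whereas EcSQ3 was far below EcSQ1 and EcSQ2 in the others. They fell in EcRS by 2.79 ± 0.43, 1.93 ± 0.27 and 2.75 ± 0.28 on the log2 scale (adjusted p = 0.000447, 0.000305 and 5.69e-05, in that order), also with TMM factors. In EcSQ the values were -2.89, -1.82 and -1.69 (adjusted p = 0.119, 0.0615 and 0.108), and without EcSQ3 all 3 passed (-2.35, -1.90 and -1.34).

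Of the 9 genes of ceramide and sphingoid base synthesis 2 rose and 2 fell in EcRS (12.8% and 47.6% of all genes), and with TMM factors 4 were called up and none down (26.4% and 31.4% of all genes). Serine palmitoyltransferase, the first and committed enzyme, is made of 2 subunits. SI65_00447 had 114, 117 and 138 FPKM in EcRS, 73.1, 124 and 194 FPKM in EcSQ and 60.8, 64.3 and 65.5 FPKM in EcCK, so that all 6 root libraries lay above EcCK. The other gene, SI65_07829, had 55.9, 60.8 and 71.5 FPKM in EcRS, 45.9, 86.5 and 183 FPKM in EcSQ and 70.9, 83.7 and 58.0 FPKM in EcCK, with overlap. The value of SI65_00447 in EcRS was 0.95 ± 0.22 (adjusted p = 0.00477), below the fold threshold, and passed with TMM factors (1.77) and without EcRS1 (1.00). SI65_07829 had -0.18 ± 0.25 (adjusted p = 0.545; with TMM factors 0.61).

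The next step is the reduction of 3-ketodihydrosphingosine, and SI65_06117, known by its KEGG entry alone, had 31.5, 11.5 and 16.7 FPKM in EcRS, 26.3, 14.1 and 15.2 FPKM in EcSQ and 4.82, 1.35 and 2.56 FPKM in EcCK. Replicate 1 was the highest of each group, and the root libraries lay above EcCK throughout. It had the largest rise of the lipid genes in EcRS (2.77 ± 0.56, adjusted p = 0.00208), and 2.67 ± 0.76 in EcSQ (adjusted p = 0.0841; without EcSQ3 2.79, adjusted p = 0.0171; with TMM factors 2.81, adjusted p = 0.0441). SI65_07899, the reductase whose own annotation names the activity, had 21.3 ± 3.59 FPKM in EcRS, 24.3 ± 6.59 FPKM in EcSQ and 25.6 ± 5.43 FPKM in EcCK (SD, n = 3 each; -0.27 ± 0.27 in EcRS, adjusted p = 0.393; with TMM factors 0.51).

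Ceramide synthase, which joins the sphingoid base to a fatty acid, has 2 genes with all 6 root libraries above EcCK. SI65_03168 had 44.0, 48.4 and 72.1 FPKM in EcRS, 53.9, 90.6 and 103 FPKM in EcSQ and 10.3, 14.1 and 27.7 FPKM in EcCK. SI65_04379 had 59.7, 64.4 and 81.4 FPKM in EcRS, 61.01, 93.0 and 143 FPKM in EcSQ and 34.3, 35.5 and 59.6 FPKM in EcCK. SI65_03168 rose in EcRS by 1.66 ± 0.40 (adjusted p = 0.00533), and in EcSQ it was 2.25 ± 0.58 (adjusted p = 0.0658; without EcSQ3 2.06, adjusted p = 0.0193; with TMM factors 2.80, adjusted p = 0.042). SI65_04379 had 0.67 ± 0.29 in EcRS (adjusted p = 0.0699; with TMM factors 1.53, adjusted p = 0.000315).

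The enzymes that lead from ceramide to glucosylceramide fell on ginseng. The sphingolipid delta-4 desaturase SI65_03220 had 11.6, 13.3 and 17.1 FPKM in EcRS, 84.8, 33.2 and 4.74 FPKM in EcSQ and 30.6, 33.0 and 50.6 FPKM in EcCK, and fell by 1.44 ± 0.29 on the log2 scale in EcRS (adjusted p = 0.00207). Ceramide glucosyltransferase SI65_03913 had 11.4, 9.59 and 10.7 FPKM in EcRS, 35.1, 32.6 and 3.66 FPKM in EcSQ and 20.9, 19.3 and 23.6 FPKM in EcCK, and fell by 1.01 ± 0.23 (adjusted p = 0.00432). In both EcSQ1 and EcSQ2 were above or within EcCK and EcSQ3 below EcRS. Neither call held with TMM factors (-0.58 and -0.18), and that of SI65_03913 did not hold without EcRS2 (-0.94) or EcCK3 (-0.93). Sphinganine C4-hydroxylase SI65_02745, of the branch to inositol phosphorylceramides, had 51.7 ± 8.24 FPKM in EcRS, 73.8 ± 3.14 FPKM in EcSQ and 86.0 ± 13.1 FPKM in EcCK (SD, n = 3 each; -0.73 ± 0.25 in EcRS, adjusted p = 0.0254, below the fold threshold; with TMM factors 0.10).

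Of 8 tested genes of sphingolipid breakdown 4 fell in EcRS and none rose, a share of 50% down near the 47.6% of all genes, and with TMM factors 2 fell and 1 rose. The falls were in acid sphingomyelinase SI65_07988, by its KEGG entry (-3.41 ± 0.56, adjusted p = 0.000705, at 0.203 ± 0.143 FPKM in EcRS and 2.20 ± 0.691 FPKM in EcCK, SD, n = 3 each), and in the phospholipase C of inositol phosphosphingolipids, SI65_07101 (-2.02 ± 0.37, adjusted p = 0.00116). Sphingosine-1-phosphate phosphatase SI65_08878 (-1.54 ± 0.28, adjusted p = 0.00107) and sphingosine kinase SI65_02826 (-1.44 ± 0.26, adjusted p = 0.00105) also fell, and both of these calls, on enzymes of opposite action, were lost with TMM factors (-0.72 and -0.64). Sphinganine-1-phosphate aldolase SI65_00794, which ends sphingoid base breakdown, had 99.1, 115 and 114 FPKM in EcRS, 112, 116 and 88.6 FPKM in EcSQ and 94.1, 82.2 and 64.5 FPKM in EcCK. Its value in EcRS was 0.45 ± 0.24 (adjusted p = 0.131; with TMM factors 1.23, adjusted p = 0.0065). The most abundant gene of this role with it, dihydroceramidase SI65_00289, had 78.0 ± 5.98 FPKM in EcRS, 116 ± 26.8 FPKM in EcSQ and 106 ± 4.75 FPKM in EcCK (SD, n = 3 each; -0.44 ± 0.22 in EcRS, adjusted p = 0.0994; with TMM factors 0.38).

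**Figure D5:**
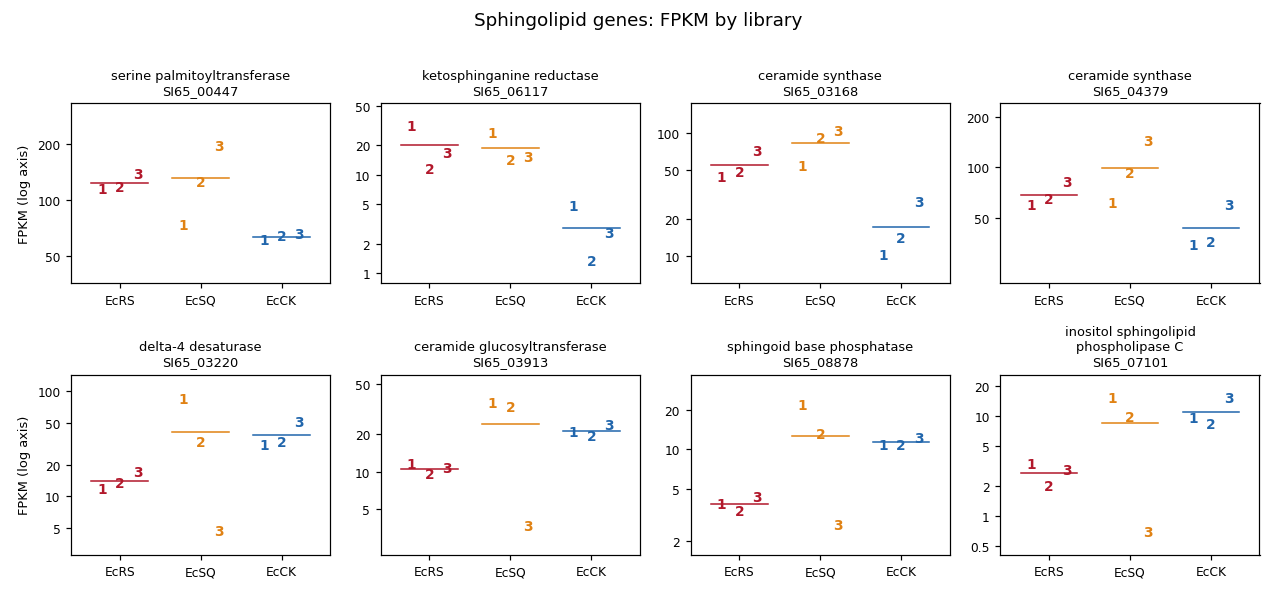
FPKM of 8 sphingolipid genes on log axes, with numerals for the replicates of EcRS, EcSQ and EcCK and bars at the group means. In the upper 4 genes, of ceramide synthesis, the 6 root libraries are above EcCK (11.5 to 31.5 FPKM in the root libraries and at most 4.82 FPKM in EcCK for SI65_06117), and in the lower 4 EcRS is below EcCK and EcSQ3 below EcSQ1 and EcSQ2.

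KEGG lists galactosidases and arylsulfatases under sphingolipids for their part in animal glycosphingolipid breakdown, and in fungi galactosidases are better known for cutting sugars from plant polysaccharides. Of 7 tested galactosidases 5 fell in EcRS and none rose (47.6% and 12.8% of all genes), and 4 of the 5 also fell with TMM factors (31.4% of all genes). Alpha-galactosidase SI65_10149 had 0.303, 0.176 and 0.200 FPKM in EcRS, 11.8, 4.68 and 0.213 FPKM in EcSQ and 4.47, 8.88 and 17.2 FPKM in EcCK, and fell by 5.46 ± 0.58 on the log2 scale in EcRS (adjusted p = 6.85e-05). The other alpha-galactosidases fell by 3.66 ± 0.31 (SI65_01410, adjusted p = 2.40e-05) and 2.45 ± 0.40 (SI65_04088, adjusted p = 0.000654), and beta-galactosidase SI65_05302 fell by 3.08 ± 0.51 (adjusted p = 0.000664). In these 4 genes EcSQ3 was near or below the EcRS level, and EcSQ1 and EcSQ2 were not. Beta-galactosidase SI65_02274 had 0.781, 0.800 and 1.18 FPKM in EcRS, 40.2, 11.3 and 0.944 FPKM in EcSQ and 1.10, 0.486 and 0.344 FPKM in EcCK. It was high in EcSQ1 and EcSQ2 alone, with 4.75 ± 1.29 in EcSQ against EcCK (adjusted p = 0.0765; without EcSQ3 5.31, adjusted p = 0.00258; with TMM factors 4.31, adjusted p = 0.0432). SI65_02274 was the galactosidase not tested in EcRS against EcCK, where it averaged under 1 FPKM. It passed the filter in EcSQ against EcCK only through its high values in EcSQ. Of 3 tested arylsulfatases, which release sulfate, SI65_09982 fell in EcRS (-1.71 ± 0.33, adjusted p = 0.00155; with TMM factors -0.85, not called).

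Between the roots no lipid gene passed. Of 121 lipid genes tested in EcRS against EcSQ, edgeR called none in either direction, with 28 at an unadjusted p under 0.05, and over all 8784 genes it called 0.0342% up and 0% down. With TMM factors it also called none (0.159% up and 0.0114% down over all genes), and limma on log2(FPKM + 1) none. With all 9 libraries in 1 fit it called 2 up and 8 down (1.34% and 12.6% of all genes), and DESeq2 called 6 up and 8 down (5.21% and 12.1% of all genes). The median log2 fold change was -0.73 in the lipid genes and -0.84 in all genes. EcRS lay above EcSQ without overlap in 11 genes (5.75% of all genes) and below it in 27 (21.1% of all genes). Without EcSQ3 the calls were 5 up (4.13%, against 4.27% of all genes) and 55 down (45.5%, against 49.7% of all genes), so the count rested on that library and stayed near the background.

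The 5 genes higher in EcRS than in EcSQ without EcSQ3 were both phosphatidylserine synthase models, the decarboxylase SI65_02740, SI65_10076 and SI65_02660. With all libraries SI65_02740 had 3.60 ± 0.72 (adjusted p = 0.0994), SI65_00422 1.50 ± 0.49 (adjusted p = 0.109), SI65_00423 0.98 ± 0.39 (adjusted p = 0.143) and SI65_10076 2.76 ± 0.43 (adjusted p = 0.0839). Without EcSQ3 they had 3.42, 1.88, 1.36 and 2.75. Glycerol 2-dehydrogenase SI65_02660, by its KEGG entry and the most abundant glycerol gene in EcRS, had 375, 342 and 341 FPKM in EcRS, 216, 99.0 and 88.2 FPKM in EcSQ and 113, 122 and 480.4 FPKM in EcCK. EcRS lay above EcSQ in all libraries (1.39 ± 0.40, adjusted p = 0.0999; without EcSQ3 1.16, adjusted p = 0.00687). The largest difference downwards was in arylsulfatase SI65_00938, with 0.240, 0.0577 and 0.127 FPKM in EcRS and 2.78, 10.3 and 1.10 FPKM in EcSQ (-4.98 ± 1.10, adjusted p = 0.0994; without EcSQ3 -5.45, adjusted p = 5.81e-05). This gene passed the filter only through its values in EcSQ and was not tested in EcRS against EcCK. Its EcRS values are near the lower end of detection, so the size of the difference is uncertain. Without EcSQ3 all 8 galactosidases and all 4 tested arylsulfatases were called lower in EcRS, as were 49.7% of all genes. Among them SI65_02274 and SI65_00938 were low in EcRS and passed the filter through EcSQ.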

How the data were processed

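The authors deposited 1 table with, for each gene and library, an estimated count and an FPKM value; Bowtie 0.12.2, HISAT2 2.0 and StringTie 1.3.0 are listed, with no roles, in the submitters' processing notes. The deposited estimated counts were rounded and tested in edgeR 4.0.16 (quasi-likelihood test, R 4.3.3), with library sizes equal to the scaling behind the authors' FPKM, after genes averaging under 1 FPKM in the 6 libraries had been left out. P-values were adjusted over all genes tested by the Benjamini-Hochberg method. Values after ± are SE for log2 fold changes and SD for FPKM. The script was tested on simulated data.

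Columns of the authors' own annotation were used, and no comparison columns. The members, roles and lists were chosen with earlier results of these data known. Named genes were, for each role, the called gene with the largest rise and the largest fall against EcCK, the most abundant gene, enzymes of first or committed steps, and members of multi-gene families. Not every family member is described above, and those passed over include called genes such as SI65_05065, a lysophospholipase that fell in EcRS. SI65_02587, SI65_03151, SI65_00759, SI65_04211, SI65_08115, SI65_09907, SI65_04621, SI65_08052, SI65_03913, SI65_02745, SI65_00794, SI65_08878, SI65_02826, SI65_07101 and SI65_06856 were added with their values in view, to complete a branch.

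Deviations from the group means correlated at 0.12, 0.20 and 0.29 between EcRS and EcCK libraries of the same replicate number. Between libraries of different number they correlated at -0.28 to 0.20. The main fits were not paired. Pairing by replicate number was run only as an alternative, and no label says what the number marks. Alternatives were TMM factors, DESeq2 1.42.0, limma 3.58.1 on log2(FPKM + 1) and log2(FPKM + 0.1), no FPKM filter, a filter at 5 FPKM, all 9 libraries in 1 fit, the replicate block, counts divided by 4, and leaving out each library. Figures were drawn with matplotlib 3.10.9.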

Additional observations from a re-analysis of the deposited data

How the results depend on the processing

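Over all lipid genes tested, the 3 comparisons and the alternatives run, the direction of 0 calls reversed. In EcRS against EcCK, 10 genes rose and 57 fell. TMM factors gave 33 up and 33 down, DESeq2 34 and 34, the replicate block with TMM 34 and 33, and 1 fit of all 9 libraries 36 down. Leaving out each library gave 10 to 15 up and 53 to 61 down. The replicate block moved 8 calls, with totals of 13 up and 54 down. In EcSQ against EcCK, 0 rose and 1 fell. TMM factors gave 8 and 7, DESeq2 18 and 18, limma on log2(FPKM + 1) 3 and 5, limma on log2(FPKM + 0.1) 1 up, 1 fit of all 9 libraries 9 and 10, the replicate block 0 down, and the block with TMM 2 and 2. Leaving out each library gave 0 to 13 up and 0 to 11 down, with the highest counts without EcSQ3. In EcRS against EcSQ, 0 changed. DESeq2 gave 6 up and 8 down, 1 fit of all 9 libraries 2 and 8, and leaving out each library 0 to 5 up and 0 to 55 down, with the highest counts without EcSQ3. In both comparisons with EcSQ same-numbered libraries did not deviate together, so the block rests on numbers alone. The cause of the differences between settings was not tested.

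With 3 replicates and the spread among the EcSQ libraries, smaller changes went uncalled there: 30 of 125 lipid genes had an unadjusted p under 0.05 against EcCK and 1 was called. Genes under 1 FPKM were not tested, and genes with few estimated counts in EcRS, such as SI65_00759, have uncertain fold changes.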

Other observations

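Other lipid pathways, counted in the same way for EcRS against EcCK with all genes at 12.8% up, 47.6% down and a median log2 fold change of -0.96, did not all have the same median. Steroid biosynthesis, the KEGG pathway that holds the fungal membrane sterol ergosterol, had 8 genes that rose and 11 that fell of 32 tested, with a median of -0.02. Fatty acid biosynthesis had 4 that rose and 9 that fell of 25 tested (median -0.41), biosynthesis of unsaturated fatty acids 4 and 11 of 28 (median -0.40), and synthesis of the glycosylphosphatidylinositol anchor of surface proteins 3 and 10 of 29 (median -0.43). Inositol phosphate metabolism had 6 that rose and 25 that fell of 47 tested, with a median of -1.15. With TMM factors the counts up and down were 13 and 6 for steroids, 7 and 7 for fatty acid biosynthesis, 9 and 5 for unsaturated fatty acids, 10 and 5 for the anchor and 12 and 20 for inositol phosphates. Over all genes that setting called 26.4% up and 31.4% down.

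Of the 20 alcohol and aldehyde dehydrogenases that the choice of pathways left out, 15 were tested in EcRS against EcCK. Of these 1 rose and 9 fell (12.8% and 47.6% of all genes), with a median of -3.21. With TMM factors 2 rose and 8 fell (26.4% and 31.4% of all genes). SI65_10177 fell on both roots, with means of 3.93 FPKM in EcRS, 11.1 FPKM in EcSQ and 103.3 FPKM in EcCK (log2 fold changes of -4.72 in EcRS and -3.22 in EcSQ). SI65_09920 rose in EcRS (3.84), with means of 8.79 FPKM in EcRS, 14.1 FPKM in EcSQ and 0.607 FPKM in EcCK. The most abundant of them, SI65_10071, had means of 434 FPKM in EcRS, 461 FPKM in EcSQ and 418 FPKM in EcCK and was not called.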
